A study of Homo sapiens with 12 samples.

Results

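The integrated stress response and the unfolded protein response were examined through 45 listed genes, which were matched by Ensembl identifier to symbols among the 58662 annotated genes with counts. The list was divided into an ATF4 arm of 25 genes (transcription factors, stress effectors, enzymes of amino acid and one-carbon metabolism, and amino acid transporters) and an ER arm of 20 genes (sensors, chaperones and folding enzymes, and genes of ER-associated degradation). RNA-seq had been performed on HEK293T cells, a human embryonic kidney line named HEK293 in the study's text. The cells were wild type by their labels, kept in DMEM with serum under normal conditions and transfected with control siRNA (siCTL) or with siRNA against CARM1, CHD4, HDAC2, GATAD2A or KDM1A. No stress-inducing compound is named for any group, and no group was left untransfected. CARM1 is an arginine methyltransferase, CHD4, HDAC2 and GATAD2A are subunits of the chromatin remodelling complex NuRD, and KDM1A is a histone demethylase that associates with it. Each of the 6 groups had 2 libraries, and the labels do not say whether these came from separate cultures, so the p-values measure the spread between these libraries. The methods give a single siRNA sequence for CHD4, HDAC2, GATAD2A and KDM1A. They give 2 for CARM1, and the sample titles of the siCARM1 group do not say which was used. In every knockdown, effects of a sequence on other transcripts cannot be told apart from loss of its target.

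Both responses act through a small number of regulators. Phosphorylation of the translation factor eIF2 by one of several kinases lowers general translation while it favours translation of ATF4, a transcription factor that binds genes of amino acid supply, its partner DDIT3 (CHOP) and the phosphatase subunit PPP1R15A (GADD34), which reverses the phosphorylation. Unfolded protein in the endoplasmic reticulum is sensed by EIF2AK3 (PERK), ERN1 (IRE1) and ATF6, and the latter pair raises ER chaperones through XBP1 and through ATF6 itself. The counts measure RNA per gene, so neither eIF2 phosphorylation, nor ATF4 protein, nor the splicing of XBP1 was measured.

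Short sequences known as binding sites of these factors were searched in RefSeq promoter windows (GRCh38.p14, 250 bases before to 50 bases after a gene's start, both strands). Windows were found for 40 of the 45 genes, 20 in each arm, and not for SHMT2, PSPH, NUPR1, SLC7A11 and ALDH1L2. The C/EBP-ATF response element TGATGNAA, bound by ATF4 with a C/EBP partner, was found in 5 of 20 ATF4 arm genes and 1 of 20 ER arm genes (HERPUD1), and in 4.457% of all 27305 genes with a window. The ATF4 arm genes with it were CEBPG, CHAC1, ASNS, SLC3A2 and SLC7A1. In SLC3A2, whose window is not shown, it stands at 38 to 45 from the gene start on the opposite strand. The windows of the other 4 ATF4 arm genes are shown, with the element in capitals as read along the gene.
CEBPG, chr19:33374061-33374088, plus strand: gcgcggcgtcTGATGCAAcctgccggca
CHAC1, chr15:40953252-40953279, plus strand, element on the opposite strand: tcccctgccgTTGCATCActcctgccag
ASNS, chr7:97872459-97872486, minus strand: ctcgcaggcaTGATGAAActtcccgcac
SLC7A1, chr13:29595664-29595691, minus strand: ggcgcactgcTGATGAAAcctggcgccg

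The ER stress response element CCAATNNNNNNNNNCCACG, to which ATF6 and XBP1 bind, was found in 7 of 20 ER arm genes (XBP1, HSPA5, HSP90B1, CALR, CANX, PDIA6 and CRELD2) and in 0 of 20 ATF4 arm genes, and in 25 of all 27305 genes (0.092%). Its shorter relative ATTGGNCCACG was found in SDF2L1, HYOU1 and HERPUD1, and in 0.07% of all genes. In HYOU1 the shorter element stands at −185 to −175 and again at −79 to −69 from the gene start. The letters TGACGTGG, an element bound by XBP1, were found in HYOU1, where they overlap the copy at −185, and in 0.927% of all genes. The HYOU1 window printed below is that of the copy at −79, which does not hold these letters. A match is a description of the letters only and not evidence of binding. Windows are shown for some of these ER genes, again with the element in capitals, and not for PDIA6, CRELD2 and SDF2L1. For HSP90B1 the copy at −194 to −176 is shown, and a further copy at −89 to −71 on the opposite strand is not.
XBP1, chr22:28800598-28800625, minus strand: ctggCCAATCGCGGAGGGCCACGaccgt
HSPA5, chr9:125241386-125241413, minus strand: ttcaCCAATCGGCGGCCTCCACGacggg
HSP90B1, chr12:103930212-103930239, plus strand: ctgaCCAATCGGAAGGAGCCACGcttcg
CALR, chr19:12938380-12938407, plus strand, element on the opposite strand: cacgCGTGGTCGACCATCATTGGtcggt
CANX, chr5:179698774-179698801, plus strand: ccggCCAATCTTCACACTCCACGaagaa
HYOU1, chr11:119057265-119057292, minus strand, shorter element on the opposite strand: gcctgggaCGTGGTCCAATgagtacgcg
HERPUD1, chr16:56932017-56932044, plus strand, shorter element: ggacgccgATTGGGCCACGttgggagag

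The libraries held 19308315 to 28648657 counts on genes. The targeted RNA was lower in each knockdown, with log2 fold changes of −2.37 for CARM1, −2.35 for HDAC2, −1.74 for GATAD2A and −2.59 for KDM1A, but of only −0.54 for CHD4, from 39.6 to 27.3 CPM (counts scaled to library depth). Fragments on no gene made up 17.2% and 18.0% of the siCTL libraries and 18.5% to 21.2% of the knockdown libraries, and fragments with several locations made up 10.6% and 7.54% of the siCTL libraries and 5.44% to 9.19% of the others. These shares separate siCTL from the knockdowns or nearly so, every comparison with siCTL uses the same 2 control libraries, and the part of either in the results was not tested. The labels name 2 sequencing providers without saying which one sequenced which library, so provider and group cannot be told apart. Of 8 HEK293 markers, 6 were expressed (KRT8, KRT18, VIM, NEFL, CDH2 and LHX1), with a summed level of 463 FPKM (fragments per kilobase of exon, scaled to depth) in siCTL, 401 to 407 in siGATAD2A and 500 to 629 in the other groups, and NEFM and PAX2 stayed under 0.5 FPKM in every library. Of the breast line MCF7, which the study also used, 7 markers summed to 37.6 to 52.6 FPKM over all libraries, most of it KRT19. Its defining genes ESR1 and TFF1 did not exceed 0.0399 and 0.398 FPKM, whereas GATA3 was at 3.01 to 5.05 FPKM in every library, and GREB1 and AREG were at 0.933 and 0.0737 FPKM in siCTL and at 4.21 and 1.59 in siCHD4. Of 8 markers of other cell types, PECAM1 was not matched, COL1A1 was at 8.23 to 13.6 FPKM and VWF at 0.726 to 1.43, and PTPRC, CD3E, HBB, ALB and EPCAM stayed at or under 0.162 FPKM. The part of these marker levels in the results was not tested.

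Per length, the ER arm held the most abundant member. In siCTL, the lectin chaperone CALR reached 219.3 FPKM ± 0.579 (SD, n = 2), followed by the large amino acid transporter SLC7A5 at 84.4 ± 0.583, SLC38A2, a transporter of small neutral amino acids, at 74.1 ± 0.113, ATF4 at 68.7 ± 2.36 and PDIA4 at 68.7 ± 0.685. ATF4, PDIA4 and PDIA6 (67.9 ± 1.03) did not differ beyond their spread. At the other end stood the sensors ERN1 (1.52 ± 0.0442) and EIF2AK3 (1.36 ± 0.0777) and the mitochondrial folate enzyme ALDH1L2 (1.11 ± 0.0127). The length used is that of all annotated exonic bases, 19153 for ERN1 and 20691 for EIF2AK3, and the order depends on it. By CPM in siCTL, ERN1 (30.8) and EIF2AK3 (29.9) lay above other members such as DDIT3 (8.58) and CHAC1 (3.7). NUPR1 and ASNS lay below the limit for testing, a mean FPKM above 0.5 in at least 1 group. NUPR1, a small stress-induced nuclear protein, had 0 to 5 counts in each library, which is too few for a fold. ASNS, which makes asparagine and carries the response element shown above, had 22 to 53 counts in each library (0.214 FPKM ± 0.0268 in siCTL), and 49.3% of its annotated exonic bases are shared with another gene on the same strand, ENSG00000284707. Fragments that lie on both genes are not counted for either, so the level of ASNS is uncertain.

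Differences from siCTL were tested for the 43 members that passed this limit, in an edgeR quasi-likelihood fit of all 12830 tested genes. A gene was called where its Benjamini-Hochberg adjusted p did not exceed 0.05 and its fold was 1.2 or more. In siCHD4, 25 members were higher and 3 lower, against 24.0% and 24.9% of all genes. In siGATAD2A, 17 were higher and 2 lower, against 15.7% and 18.2%. In siKDM1A, 15 were higher and 2 lower, against 14.2% and 11.5%. In siHDAC2, 12 were higher and 6 lower, against 10.6% and 9.00%. In siCARM1, 11 were higher and 7 lower, against 14.9% and 14.5%. In such bulk samples, fewer cells that express a gene and less RNA per cell cannot be told apart. The share called higher was above that of all genes in each knockdown, and the share called lower was below it in siCHD4, siGATAD2A and siKDM1A. In a test across all 6 groups, 42 of 43 members differed (83.0% of all genes), the exception being CANX. STC2, XBP1, HSPA5 and HSP90B1 were higher in each of the 5 knockdowns, and 5 were called in none (ERN1, CANX, PDIA4, SDF2L1 and SEL1L).

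**Figure D1:**
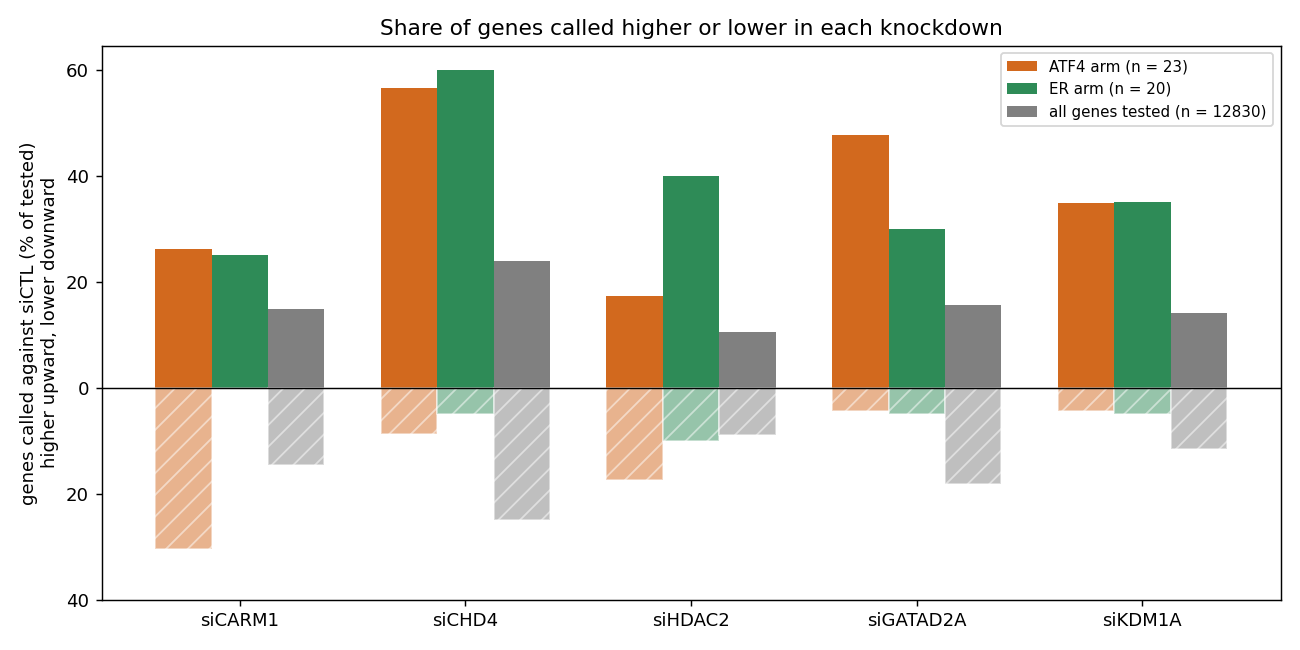
Bars show the share of tested genes (in %) called higher (upward, solid) or lower (downward, hatched) than siCTL in each knockdown, for the ATF4 arm (23 tested), the ER arm (20 tested) and all 12830 tested genes. The shares called higher reached 56.5% of the ATF4 arm and 60% of the ER arm in siCHD4, and siCARM1 was the only knockdown in which more ATF4 arm genes were lower (7) than higher (6).

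The transcription factors of the ATF4 arm were higher in siCHD4 without exception among those tested (5 of 5, against 24.0% of all genes). In siHDAC2 they ranged from −0.13 (ATF5) to 0.30 (DDIT3) on the log2 scale without a call. ATF4 itself, on chr22:39915700-39918688 (hg19, as are all gene positions that follow), had 185 and 195 CPM in the siCTL libraries, 242 and 230 in siCARM1, 367 and 372 in siCHD4, 226 and 230 in siHDAC2, 381 and 376 in siGATAD2A and 250 and 245 in siKDM1A. Every knockdown library lay above both siCTL libraries, and the siCHD4 and siGATAD2A libraries lay above all others. The log2 fold change against siCTL was 0.96 ± 0.04 (SE) in siCHD4 and 0.99 ± 0.04 in siGATAD2A (edgeR adjusted p = 8.5e-19 and 1.7e-18). It was 0.38 ± 0.04 in siKDM1A and 0.31 ± 0.04 in siCARM1 (edgeR adjusted p = 1.2e-08 and 3.1e-07). The value in siHDAC2, 0.26 ± 0.04 with an adjusted p of 1.1e-05, fell just short of the fold limit.

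ATF5, a related factor that is also translated under eIF2 phosphorylation (chr19:50431959-50437192), had 15.4 and 16.5 CPM in siCTL, 18 and 17.8 in siCARM1, 31.1 and 32.7 in siCHD4, 14.6 and 14.5 in siHDAC2, 19.4 and 17.6 in siGATAD2A and 21.6 and 22.4 in siKDM1A. It was higher in siCHD4 by 0.997 ± 0.086 (edgeR adjusted p = 1.4e-11) and in siKDM1A by 0.46 ± 0.09 (edgeR adjusted p = 0.00011), and was not called in siGATAD2A (0.21 ± 0.09). ATF5 in siCHD4 exceeded that in siGATAD2A by 0.78 ± 0.08 (edgeR adjusted p = 1.1e-09).

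DDIT3 (CHOP), a factor linked to cell death under prolonged stress (chr12:57910371-57915520), had 8.70 and 8.46 CPM in siCTL, 8.0 and 7.97 in siCARM1, 14.7 and 15.4 in siCHD4, 11 and 10.2 in siHDAC2, 12.3 and 12.8 in siGATAD2A and 10.6 and 9.10 in siKDM1A. It rose in siCHD4 (0.81 ± 0.12, edgeR adjusted p = 3.6e-07) and in siGATAD2A (0.55 ± 0.12, edgeR adjusted p = 0.00026). The siCARM1 libraries lay below both control libraries, by a difference that did not pass the test (−0.10 ± 0.13, edgeR adjusted p = 0.53). Its exonic bases are shared by 8.03% with ENSG00000285133 on the same strand. Of the C/EBP factors that pair with ATF4, CEBPB rose only in siCHD4 among the 5 comparisons (0.81 ± 0.11), and CEBPG rose in siCHD4 (0.36 ± 0.06) and fell in siCARM1 (−0.28 ± 0.06, a call lost without siCTL replicate 1).

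**Figure D2:**
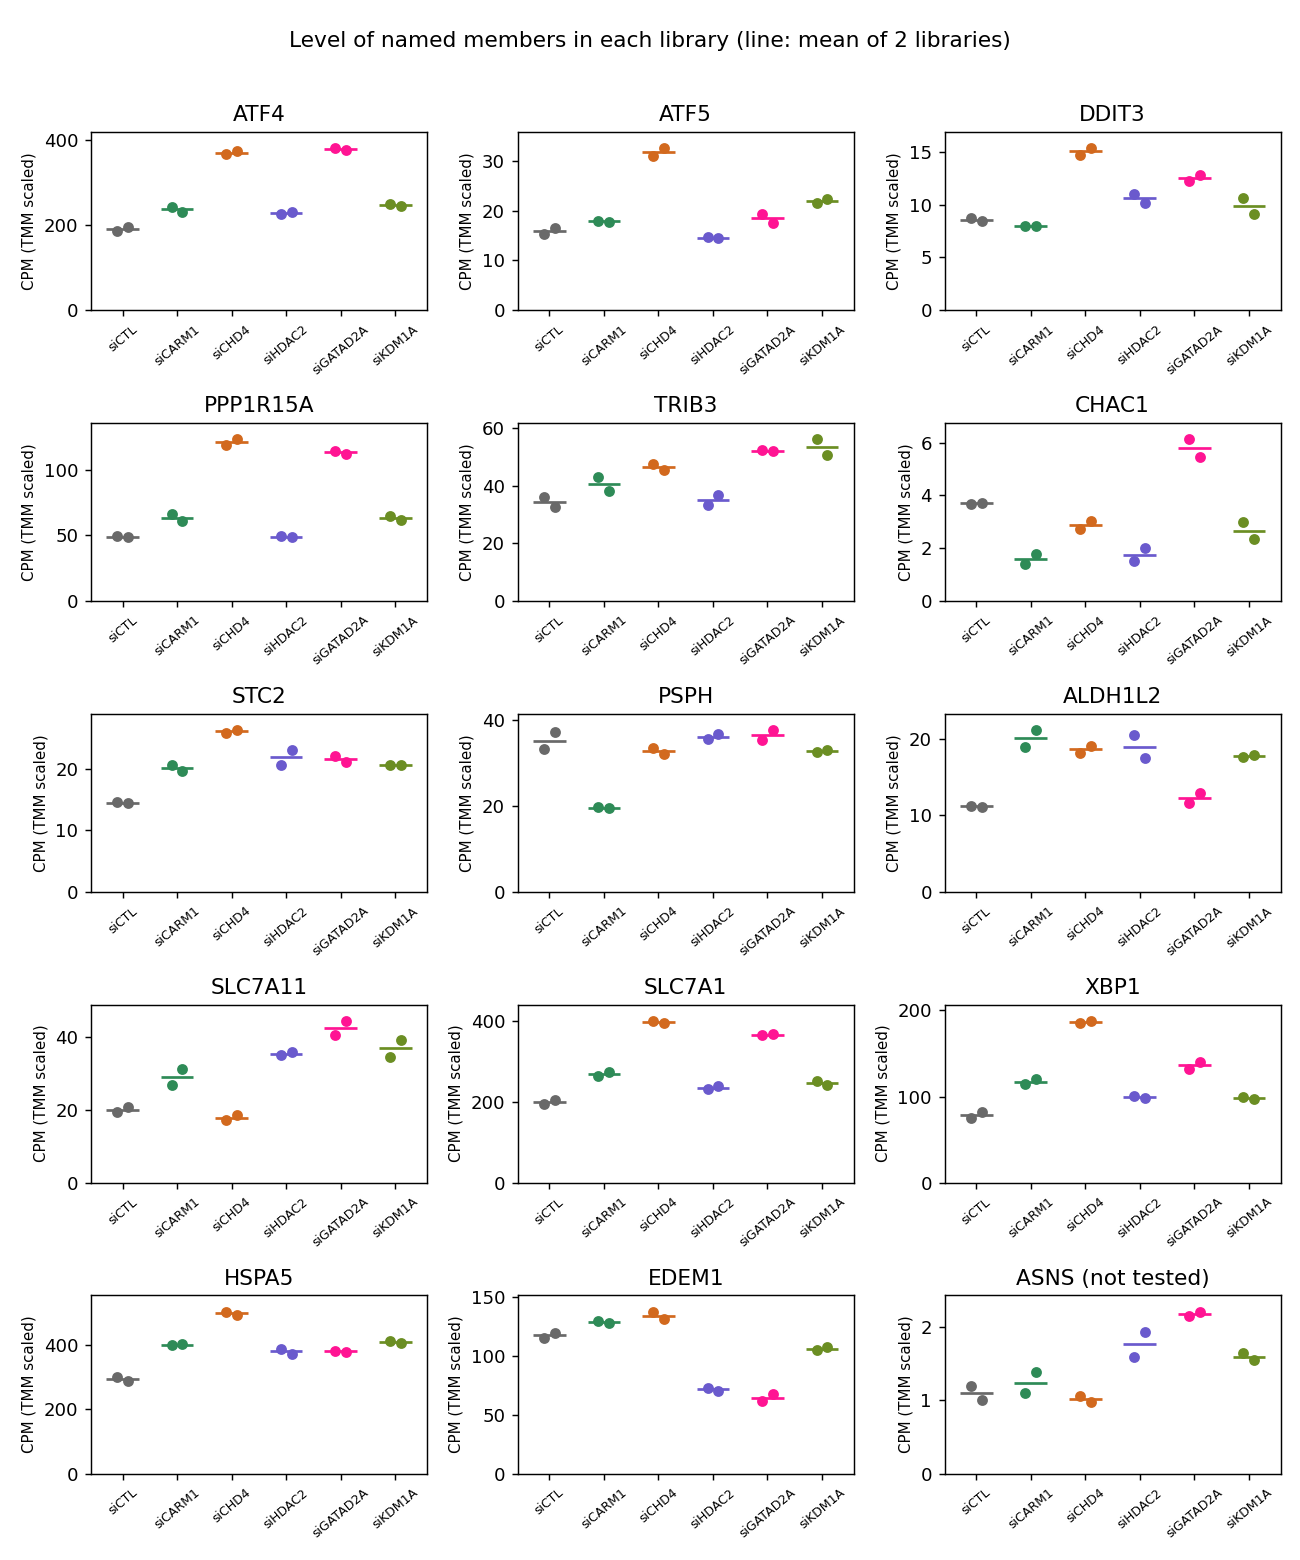
Points are the TMM-scaled CPM (axes from 0) of 15 members in each of the 12 libraries, and lines are means of 2 libraries. ATF4, PPP1R15A and SLC7A1 stood highest in siCHD4 and siGATAD2A, XBP1 and HSPA5 stood highest in siCHD4, EDEM1 stood lowest in siGATAD2A and siHDAC2, and PSPH was lowest in siCARM1 (19.8 and 19.4 CPM). ASNS was not tested.

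Among the stress effectors, the phosphatase subunit PPP1R15A (chr19:49375469-49379316) showed the largest rises. Its levels were 49.3 and 48.8 CPM in siCTL, 66 and 60.8 in siCARM1, 119 and 124 in siCHD4, 49.3 and 48.5 in siHDAC2, 115 and 112 in siGATAD2A and 64.9 and 61.9 in siKDM1A. The siHDAC2 libraries overlapped siCTL, and all other knockdown libraries lay above it. The log2 fold change was 1.31 ± 0.06 in siCHD4 and 1.21 ± 0.06 in siGATAD2A (edgeR adjusted p = 5.6e-19 and 2e-17), and 0.37 ± 0.06 in both siCARM1 and siKDM1A (edgeR adjusted p = 3.9e-06 and 5.7e-06). PPP1R15A differed by 0.10 ± 0.05 between siCHD4 and siGATAD2A (edgeR adjusted p = 0.089), and was higher in each of these groups than in siCARM1, siHDAC2 and siKDM1A.

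TRIB3, a pseudokinase that binds ATF4 (chr20:343479-378203), had 36.0 and 32.7 CPM in siCTL, 43 and 38.3 in siCARM1, 47.6 and 45.4 in siCHD4, 33.3 and 36.9 in siHDAC2, 52.3 and 52.1 in siGATAD2A and 56.3 and 50.6 in siKDM1A. It was higher in siKDM1A (0.64 ± 0.07), siGATAD2A (0.61 ± 0.07) and siCHD4 (0.44 ± 0.08), with edgeR adjusted p of 3e-08, 4.2e-08 and 6.8e-06. The siHDAC2 libraries overlapped siCTL.

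STC2, a secreted glycoprotein induced by ER stress (chr5:172741726-172755450), had 14.6 and 14.3 CPM in siCTL, 20.6 and 19.7 in siCARM1, 25.8 and 26.3 in siCHD4, 20.6 and 23 in siHDAC2, 22 and 21.1 in siGATAD2A and 20.6 in each siKDM1A library. All 10 knockdown libraries lay above both control libraries. The rise was 0.85 ± 0.09 in siCHD4 (edgeR adjusted p = 9.4e-10) and 0.48 to 0.60 in the other 4 knockdowns, which share the siCTL libraries.

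CHAC1, an enzyme that degrades glutathione and a common marker of the ATF4 pathway (chr15:41245160-41248710), moved in the opposite direction to ATF4 in siCARM1. Its levels were 3.66 and 3.73 CPM in siCTL, 1.41 and 1.76 in siCARM1, 2.74 and 3.02 in siCHD4, 1.5 and 2.01 in siHDAC2, 6.14 and 5.44 in siGATAD2A and 2.97 and 2.35 in siKDM1A. Only the siGATAD2A libraries lay above siCTL, and all others lay below it. It fell by 1.23 ± 0.23 in siCARM1 and by 1.05 ± 0.23 in siHDAC2, and it rose by 0.65 ± 0.19 in siGATAD2A (edgeR adjusted p = 5.8e-05, 0.00055 and 0.004). The last call was lost without siGATAD2A replicate 1 (0.56, edgeR adjusted p = 0.052), and CHAC1 had the widest gap between replicates of any member, 0.43 on the log2 scale in siHDAC2.

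The remaining effectors did not move together. DDIT4, an inhibitor of mTORC1, was lower in siCHD4 (−0.85 ± 0.06, from 106.8 to 59.2 CPM) and in siGATAD2A (−0.83 ± 0.06), and higher in siHDAC2 (0.49 ± 0.06). SESN2, which senses leucine upstream of mTORC1, was called only in siCARM1 of the 5 comparisons, where it was lower (−0.32 ± 0.05), a call that the GC correction ended. VLDLR, a lipoprotein receptor, was higher in siGATAD2A (0.63 ± 0.06) and lower in siKDM1A (−0.42 ± 0.07). In total, 5 of 7 effectors were higher and 1 lower in siGATAD2A, 3 and 1 in siCHD4 and in siKDM1A, 2 and 1 in siHDAC2 and 2 and 2 in siCARM1, beside the shares of all genes given above for each knockdown.

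**Figure D3:**
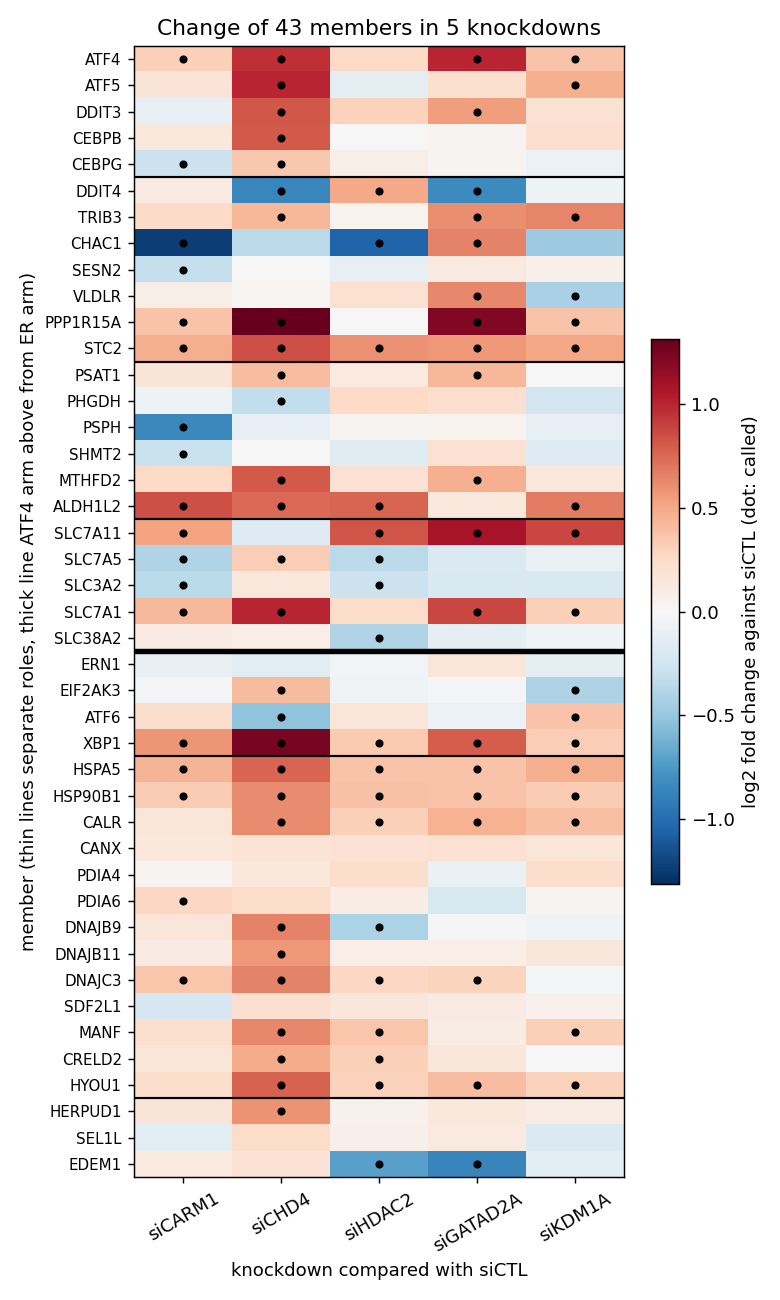
Colours give the log2 fold change against siCTL of the 43 tested members in each knockdown, thin lines separate roles, the thick line separates the ATF4 arm (above) from the ER arm, and a dot marks a called gene. The XBP1, HSPA5, HSP90B1 and STC2 rows carry 5 dots each, and PPP1R15A and XBP1 have the largest rises, 1.31 and 1.25 in siCHD4.

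Among enzymes of serine and one-carbon metabolism, at most 3 of 6 tested members were higher in any knockdown (siCHD4, against 24.0% of all genes). At most 2 were lower (siCARM1, against 14.5%). In siCARM1 and siKDM1A, 1 of 6 was higher (16.7%), near the shares of all genes (14.9% and 14.2%). PSPH, which catalyses the last step of serine synthesis (chr7:56078744-56119297), had 33.2 and 37.1 CPM in siCTL, 19.8 and 19.4 in siCARM1, 33.4 and 32.0 in siCHD4, 35.5 and 36.7 in siHDAC2, 35.3 and 37.7 in siGATAD2A and 32.6 and 33.0 in siKDM1A. The siCARM1 libraries lay far below all others, with a fall of 0.85 ± 0.08 against siCTL (edgeR adjusted p = 2.2e-10). PSPH was also lower in siCARM1 than in siHDAC2 (−0.88 ± 0.08, edgeR adjusted p = 1.5e-10, in a comparison where 19.3% of all genes were called) and than in siKDM1A (−0.74 ± 0.08, edgeR adjusted p = 4.3e-09, against 21.0%). The serine enzymes before it did not do the same, since PHGDH was at −0.07 ± 0.05 in siCARM1 and PSAT1 at 0.17 ± 0.06, neither called. PSAT1 was higher in siCHD4 (0.41 ± 0.06) and siGATAD2A (0.44 ± 0.06), and PHGDH was lower in siCHD4 (−0.33 ± 0.05).

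ALDH1L2, a mitochondrial enzyme of folate metabolism (chr12:105413562-105501421), had 11.2 and 11.1 CPM in siCTL, 19.0 and 21.2 in siCARM1, 18.1 and 19.1 in siCHD4, 20.5 and 17.5 in siHDAC2, 11.6 and 12.9 in siGATAD2A and 17.6 and 17.9 in siKDM1A. It was higher by 0.84 ± 0.11 in siCARM1, 0.76 ± 0.11 in siHDAC2, 0.74 ± 0.11 in siCHD4 and 0.67 ± 0.11 in siKDM1A (edgeR adjusted p between 9.1e-08 and 6.9e-06). In siGATAD2A it was at 0.14 ± 0.11 (edgeR adjusted p = 0.32), and lower than in each of the other 4 knockdowns, for example by 0.71 ± 0.10 than in siCARM1 (edgeR adjusted p = 6.9e-07). MTHFD2, another mitochondrial folate enzyme and a known ATF4 target, showed another order, with 0.81 ± 0.05 in siCHD4 and 0.46 ± 0.05 in siGATAD2A called higher and 0.14 to 0.26 in the other knockdowns not called. SHMT2 was lower in siCARM1 (−0.29 ± 0.04, a call that the GC correction ended) and not called elsewhere.

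For the transporters, SLC7A11 and SLC7A1 showed the largest changes. SLC7A11, which imports cystine in exchange for glutamate (chr4:139085251-139163503), had 19.5 and 20.8 CPM in siCTL, 26.9 and 31.2 in siCARM1, 17.4 and 18.5 in siCHD4, 35.0 and 36.1 in siHDAC2, 40.8 and 44.6 in siGATAD2A and 34.7 and 39.3 in siKDM1A. The siCHD4 libraries were the only ones below siCTL, and all others were above it. It rose by 1.08 ± 0.09 in siGATAD2A, 0.88 ± 0.09 in siKDM1A, 0.82 ± 0.09 in siHDAC2 and 0.52 ± 0.09 in siCARM1 (edgeR adjusted p between 4.2e-12 and 1.4e-05). In siCHD4 it was at −0.17 ± 0.09 (edgeR adjusted p = 0.12), 1.25 ± 0.08 below siGATAD2A (edgeR adjusted p = 6.8e-14).

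SLC7A1, a transporter of arginine and lysine (chr13:30083551-30169825), was highest in siCHD4 and siGATAD2A, the groups in which ATF4 was highest. It had 195 and 203 CPM in siCTL, 263 and 272 in siCARM1, 400 and 394 in siCHD4, 231 and 239 in siHDAC2, 365 and 366 in siGATAD2A and 251 and 242 in siKDM1A, so that every knockdown library lay above siCTL. The rise was 0.99 ± 0.04 in siCHD4, 0.88 ± 0.04 in siGATAD2A, 0.43 ± 0.04 in siCARM1 and 0.31 ± 0.04 in siKDM1A (edgeR adjusted p between 2.8e-19 and 4e-07). In siHDAC2 it was 0.24 ± 0.04 with an adjusted p of 3.8e-05, under the fold limit. SLC7A5 and SLC3A2, the light and heavy chains of the leucine transporter, were lower together in siCARM1 (−0.40 ± 0.04 and −0.35 ± 0.04) and in siHDAC2 (−0.35 ± 0.04 and −0.29 ± 0.04), while SLC7A5 was higher in siCHD4 (0.32 ± 0.04). SLC38A2 was lower in siHDAC2 (−0.40 ± 0.04). The call of SLC3A2 in siHDAC2 was lost without siCTL replicate 2, without siHDAC2 replicate 1 or with the GC correction.

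ASNS is described by its counts alone. The libraries held 22 and 22 counts in siCTL, 29 and 29 in siCARM1, 24 and 23 in siCHD4, 31 and 52 in siHDAC2, 53 and 50 in siGATAD2A and 36 and 37 in siKDM1A. Scaled for depth, the siGATAD2A libraries were highest (2.15 and 2.21 CPM) and the siCHD4 libraries (1.06 and 0.980 CPM) overlapped siCTL (1.2 and 1.01 CPM). The gene that shares its exonic bases had 3 to 16 counts in each library.

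At the head of the ER arm, XBP1 (chr22:29190543-29196585) rose while the sensors changed little or in both directions. XBP1 had 75.3 and 81.7 CPM in siCTL, 114 and 120 in siCARM1, 185 and 188 in siCHD4, 101 and 97.8 in siHDAC2, 132 and 140 in siGATAD2A and 99.8 and 97.3 in siKDM1A. No knockdown library overlapped siCTL, and the siCHD4 libraries lay above all others. The rise was 1.25 ± 0.05 in siCHD4, 0.79 ± 0.05 in siGATAD2A and 0.58 ± 0.05 in siCARM1 (edgeR adjusted p = 2.9e-19, 7.8e-14 and 1.8e-10). It was 0.34 ± 0.05 in siHDAC2 and 0.33 ± 0.05 in siKDM1A (edgeR adjusted p = 9.4e-06 and 1e-05), and the latter call was lost without siCTL replicate 1 (0.26, under the fold limit).

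ATF6 was lower in siCHD4 (−0.53 ± 0.06, edgeR adjusted p = 8.8e-10) and higher in siKDM1A (0.38 ± 0.05, edgeR adjusted p = 7.8e-07). EIF2AK3 was the reverse, higher in siCHD4 (0.42 ± 0.08, edgeR adjusted p = 2.3e-05) and lower in siKDM1A (−0.41 ± 0.08, edgeR adjusted p = 2e-04). ERN1 ranged from −0.15 in siCHD4 to 0.16 in siGATAD2A, with no call.

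HSPA5 (BiP), the central ER chaperone that also restrains the sensors (chr9:127997132-128003661), was higher in every knockdown. It had 298 and 287 CPM in siCTL, 398 and 402 in siCARM1, 502 and 493 in siCHD4, 386 and 371 in siHDAC2, 380 and 378 in siGATAD2A and 411 and 404 in siKDM1A. All 10 knockdown libraries lay above both control libraries, and siCHD4 lay above the others. The rise was 0.77 ± 0.04 in siCHD4 and between 0.37 and 0.48 in the others (edgeR adjusted p between 2.7e-17 and 5.8e-09). HSPA5 in siCHD4 exceeded that in siCARM1 by 0.32 ± 0.04, siHDAC2 by 0.39 ± 0.04, siGATAD2A by 0.39 ± 0.04 and siKDM1A by 0.29 ± 0.04 (edgeR adjusted p between 1.3e-10 and 7.9e-08).

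The other chaperones and folding enzymes followed in part. Of 13 such members, 9 were higher in siCHD4, 7 in siHDAC2, 5 each in siGATAD2A and siKDM1A and 4 in siCARM1. The share of all genes called higher was 24.0%, 10.6%, 15.7%, 14.2% and 14.9% in that order. The median log2 fold change of the 13 members was 0.62, 0.27, 0.15, 0.16 and 0.16 in the same order. HSP90B1 (GRP94), an ER member of the HSP90 family, rose by 0.62 ± 0.04 in siCHD4 and by 0.33 to 0.38 elsewhere, and its call was lost in siCARM1 and siKDM1A without siCTL replicate 2, and in siCARM1 with the GC correction. CALR rose in siCHD4 (0.62 ± 0.04), siGATAD2A (0.45 ± 0.04), siKDM1A (0.39 ± 0.04) and siHDAC2 (0.31 ± 0.04). HYOU1, an exchange factor and chaperone of the HSP70 family, rose in the same 4 groups, by 0.77, 0.40, 0.30 and 0.30. DNAJC3, a co-chaperone of HSPA5, rose in all but siKDM1A. Its calls in siHDAC2 and siGATAD2A were lost without siCTL replicate 2 or with edgeR's own expression filter. In siHDAC2 the call was also lost with unstranded counts, with the GC correction or without siHDAC2 replicate 1. In siGATAD2A it was also lost without siGATAD2A replicate 2. The secreted factors MANF and CRELD2 rose in siCHD4 (0.63 and 0.48) and siHDAC2 (0.37 and 0.31). MANF also rose in siKDM1A (0.31 ± 0.08, edgeR adjusted p = 0.0016), a call lost without siCTL replicate 1 or siKDM1A replicate 2. DNAJB9, another co-chaperone of HSPA5, rose in siCHD4 (0.65 ± 0.12) and fell in siHDAC2 (−0.42 ± 0.13), a call lost when either siHDAC2 replicate 2 or siCTL replicate 1 was left out. DNAJB11 rose in siCHD4 alone of the 5 comparisons (0.57 ± 0.07), and PDIA6, a disulfide isomerase, was called only in siCARM1 (0.27 ± 0.04). The PDIA6 call was lost without siCTL replicate 1, without siCARM1 replicate 2 or with the GC correction. CANX, the membrane-bound lectin chaperone, had an adjusted p of at most 0.0018 in each comparison but a change of only 0.14 to 0.20, under the fold limit.

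In ER-associated degradation, EDEM1, a lectin that hands misfolded glycoproteins to the degradation machinery (chr3:5229331-5261643), was called lower in siHDAC2 and siGATAD2A and in no other knockdown. It had 115 and 120 CPM in siCTL, 130 and 128 in siCARM1, 138 and 131 in siCHD4, 73.2 and 70.6 in siHDAC2, 61.5 and 67.8 in siGATAD2A and 105 and 108 in siKDM1A. The siHDAC2 and siGATAD2A libraries lay well below all others. It fell by 0.71 ± 0.05 in siHDAC2 and by 0.86 ± 0.05 in siGATAD2A (edgeR adjusted p = 7.3e-12 and 2.1e-14). HERPUD1, an adaptor of the degradation complex, was higher in siCHD4 (0.59 ± 0.07), and SEL1L was not called, with values from −0.19 to 0.24.

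Across the arms, the medians were positive in each comparison while the median of all tested genes stayed between −0.002 and 0.005. The ATF4 arm had a median log2 fold change of 0.36 in siCHD4, 0.22 in siGATAD2A, 0.12 in siCARM1, 0.08 in siHDAC2 and 0.06 in siKDM1A. The ER arm had 0.53 in siCHD4, 0.18 in siHDAC2, 0.16 in siCARM1, 0.13 in siGATAD2A and 0.12 in siKDM1A. Against siCTL, 12 ER arm genes were higher and 1 lower in siCHD4, 8 and 2 in siHDAC2, 7 and 1 in siKDM1A, 6 and 1 in siGATAD2A, and 5 were higher in siCARM1. For the ATF4 arm these counts were 13 and 2 in siCHD4, 11 and 1 in siGATAD2A, 8 and 1 in siKDM1A, 4 and 4 in siHDAC2 and 6 and 7 in siCARM1. Of all genes, 24.0% and 24.9% were called higher and lower in siCHD4, 15.7% and 18.2% in siGATAD2A and 14.9% and 14.5% in siCARM1. In siKDM1A these shares were 14.2% and 11.5%, and in siHDAC2 10.6% and 9.00%. The lower calls of the ER arm in siHDAC2 (10%) were near the share of all genes. The difference of the arm medians, ATF4 arm minus ER arm, was −0.17 in siCHD4, −0.10 in siHDAC2, −0.06 in siKDM1A, −0.04 in siCARM1 and 0.09 in siGATAD2A. Computed library by library, it was 0.15 and 0.05 in siGATAD2A and below 0 in every library of the other knockdowns, whereas siCTL gave −0.01 and 0.01. These values moved with the processing, and in siKDM1A the direction turned, to 0.018 where all coding genes with a count were kept. That filter also adds ASNS and NUPR1, left out of the main test, to the ATF4 arm, so its median is taken over other genes. The GC correction took siCHD4 to −0.068, and leaving out siCTL replicate 1 took siCHD4 to −0.095 and siGATAD2A to 0.048.

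**Figure D4:**
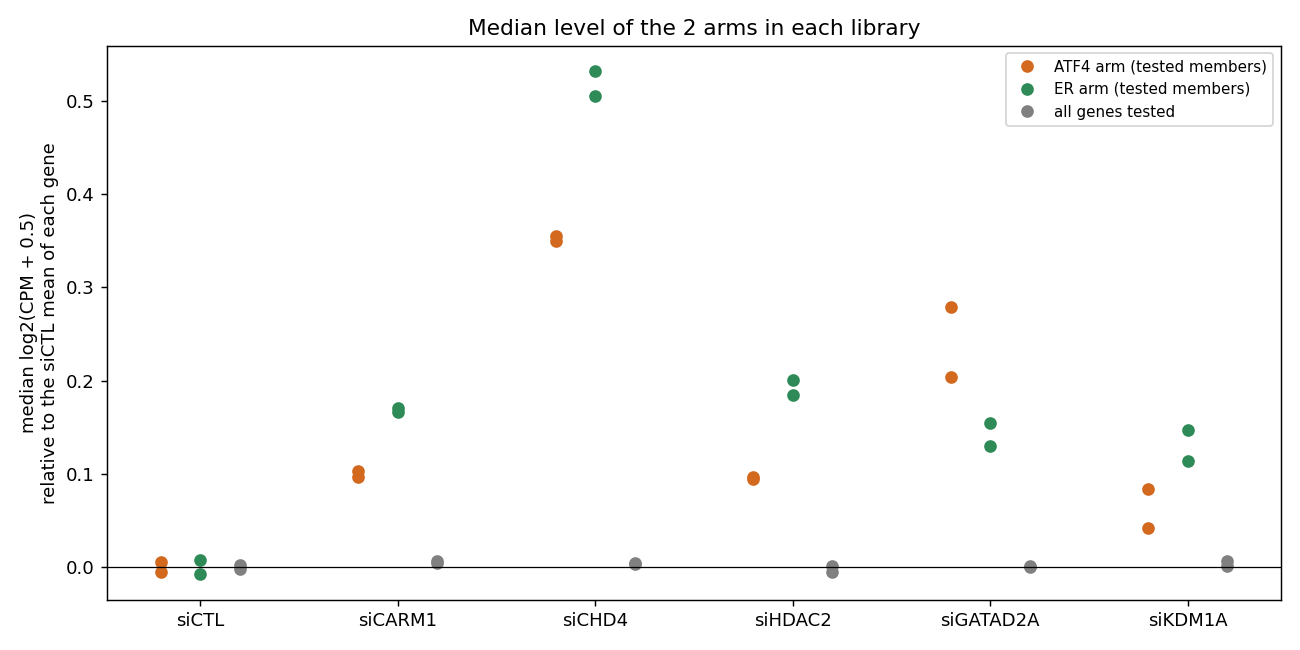
Points give, for each library, the median over genes of log2(CPM + 0.5) relative to each gene's siCTL mean, for the tested ATF4 arm (23 genes), the ER arm (20 genes) and all 12830 tested genes. Both arms lay above all genes in every knockdown library, the ER arm was highest in siCHD4 (0.53 and 0.51), and siGATAD2A was the only group in which both libraries had the ATF4 arm (0.28 and 0.20) above the ER arm (0.13 and 0.15).

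Comparisons between knockdowns do not use siCTL, although those named together share the libraries of siCHD4 or of siGATAD2A. Of 23 ATF4 arm genes, 15 were higher in siCHD4 than in siCARM1 and 2 lower, against 23.3% and 24.5% of all genes. Against siHDAC2 the counts were 14 and 3 (23.5% and 25.3%), against siKDM1A 13 and 2 (22.8% and 25.0%), and against siGATAD2A 9 and 4 (22.9% and 21.9%). Of 20 ER arm genes, siCHD4 was higher for 14 and lower for 1 against siCARM1, for 10 and 1 against siHDAC2, for 13 and 1 against siKDM1A and for 12 and 2 against siGATAD2A. Every one of the 5 tested transcription factors was higher in siCHD4 than in siCARM1, siHDAC2 and siKDM1A.

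In siGATAD2A, 14 of 23 ATF4 arm genes were higher than in siCARM1 and 2 lower (15.2% and 18.6% of all genes), 10 and 2 against siHDAC2 (12.5% and 17.0%), and 10 and 2 against siKDM1A (13.2% and 18.9%). Of 20 ER arm genes, 3 were higher and 3 lower than in siCARM1, 2 and 3 against siHDAC2, and 5 and 3 against siKDM1A. ATF4 was higher in siGATAD2A by 0.68 ± 0.04 than in siCARM1, 0.73 ± 0.04 than in siHDAC2 and 0.62 ± 0.04 than in siKDM1A (edgeR adjusted p = 6.9e-15, 2.2e-15 and 9.3e-14).

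Further genes of both pathways, from hand-written lists that hold no member of the 2 arms, were read in the same test, and their counts stand beside the shares of all genes called higher and lower (24.0% and 24.9% in siCHD4, 15.7% and 18.2% in siGATAD2A, 14.9% and 14.5% in siCARM1, 14.2% and 11.5% in siKDM1A, 10.6% and 9.00% in siHDAC2). Of 26 tested further ATF4 targets, 13 were higher and 7 lower in siCHD4, 9 and 5 in siGATAD2A, 9 and 3 in siCARM1, 4 and 5 in siKDM1A and 3 and 1 in siHDAC2. The lower calls in siCHD4 and siGATAD2A and the higher calls in siKDM1A and siHDAC2 were near the share of all genes. The lower calls in siCARM1 and siHDAC2 were under it. ATF3, a stress-induced factor, rose by 1.26 ± 0.06 in siCHD4, 1.08 ± 0.06 in siGATAD2A, 0.58 ± 0.06 in siCARM1 and 0.37 ± 0.06 in siKDM1A, and was at 0.03 ± 0.06 in siHDAC2. GDF15, a secreted stress cytokine, fell by 1.59 ± 0.23 in siGATAD2A and by 1.14 ± 0.21 in siCARM1, and rose by 0.92 ± 0.17 in siKDM1A and 0.73 ± 0.17 in siCHD4. Of 20 cytosolic aminoacyl-tRNA synthetases, which load amino acids onto tRNA, 7 were higher in siCHD4, 5 in siGATAD2A, 3 in siCARM1 and 2 in siHDAC2 and in siKDM1A, the last 3 groups near or under the share of all genes. CARS1 rose by 0.56 ± 0.05 in siCHD4 and 0.53 ± 0.05 in siGATAD2A, and YARS1 by 0.39 ± 0.05 and 0.55 ± 0.05.

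Upstream of ATF4, 14 genes of eIF2, its exchange factor eIF2B, the other eIF2 kinases and their regulators were read. In each knockdown 2 or 3 were higher (14.3% or 21.4%) and at most 2 lower. The higher calls were near or under the share of all genes, and the lower calls were under it. The kinase EIF2AK2 (PKR) was lower in siCHD4 (−0.89 ± 0.05) and siCARM1 (−0.40 ± 0.05), and IMPACT, an inhibitor of the kinase GCN2, was higher in all 5 knockdowns (0.47 to 0.99).

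Further ER folding genes, 19 tested, were higher for 9, 5, 5, 5 and 3 genes and lower for 4, 2, 1, 2 and 2 in siCHD4, siCARM1, siHDAC2, siKDM1A and siGATAD2A. The lower calls, and the higher calls in siGATAD2A (15.8% against 15.7%), were near or under the shares of all genes. FKBP14, a prolyl isomerase of the ER, rose by 0.45 to 0.66 in all but siGATAD2A, where it was at 0.00 ± 0.08, and the co-chaperone DNAJB2 fell by 1.03 ± 0.08 in siCHD4. Of 20 further degradation genes, 5 were higher and 2 lower in siCHD4, 4 and 3 in siGATAD2A, and at most 1 and 2 in the others, shares near or under those of all genes. The membrane factor AUP1 rose in siCHD4 (0.53 ± 0.05) and siGATAD2A (0.63 ± 0.05), and the ubiquitin-conjugating enzyme UBE2G2 rose in siCHD4 (0.54 ± 0.05) and fell in siGATAD2A (−0.34 ± 0.05). Of 24 genes of ER translocation and secretion, 9 were higher and 3 lower in siCHD4, 3 and 4 in siGATAD2A, and 2 were lower in each other knockdown. Except for the higher calls in siCHD4, these counts were near or under the shares of all genes. KDELR3, a receptor that returns ER proteins from the Golgi, fell by 1.49 ± 0.11 in siCHD4, 1.07 ± 0.11 in siGATAD2A, 0.87 ± 0.11 in siKDM1A and 0.56 ± 0.10 in siHDAC2, and SSR1, a subunit of the translocon, fell by 0.78 ± 0.05 in siCHD4.

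Stress responses of other compartments were set beside these. Of 16 cytosolic heat shock genes, 7 were higher and 1 lower in siCHD4, 4 and 1 in siGATAD2A, 2 and 2 in siCARM1, 2 and 1 in siKDM1A, and 2 were lower in siHDAC2. The share called higher exceeded that of all genes in siCHD4 and siGATAD2A and was near or under it in the other knockdowns. HSPA1A and HSPA1B, the inducible HSP70 genes, were called in opposite directions in siCHD4 (1.11 ± 0.15 and −1.12 ± 0.04). They are near-identical copies, and fragments that align equally well to both are not counted, so both values are uncertain. Of 13 mitochondrial chaperone and protease genes, 5 were higher and 2 lower in siCHD4, 3 and 2 in siGATAD2A, 2 and 1 in siCARM1 and in siKDM1A, and 2 and 2 in siHDAC2. The counts in siCARM1 and siKDM1A and the lower calls in siCHD4 and siGATAD2A were near or under the shares of all genes. LONP1, a mitochondrial protease, rose in all 5 knockdowns, by 0.70 ± 0.05 in siCHD4, 0.65 ± 0.05 in siGATAD2A and 0.33 to 0.42 in the others, and the chaperone HSPA9 rose in siCHD4 (0.63 ± 0.04) and siGATAD2A (0.38 ± 0.04).

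ATF4, PSAT1, PSPH, SLC7A5, HSPA5 and HSP90B1 have annotated pseudogenes, and fragments that align equally well to a gene and its copy are not counted, so the absolute levels of these genes may be too low.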

How the data were processed

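RNA-seq had been performed on 12 HEK293T libraries, 2 for each of 6 siRNA groups. Unnormalized gene counts of read pairs, keyed by Ensembl identifier and laid out as STAR writes them, were deposited by the authors. The submitters' processing notes name CASAVA 1.4, STAR 2.7.10 and hg19. The study's methods instead name TopHat with RefSeq genes of hg19, which differs from these Ensembl-keyed files, and the annotation release behind the files is not given in the sources used here. The reverse-strand counts were used, as the kit is directional. Of 60660 identifiers, 58662 matched GENCODE (v44lift37) on hg19. The 1954 unmatched ones held 1.75% to 2.61% of counts and were left out, as were 44 pseudoautosomal copies.

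Coding genes with a mean FPKM above 0.5 in at least 1 group were tested (12830) with edgeR 4.0.16 (R 4.3.3) by its quasi-likelihood test, with TMM scaling (factors 0.968 to 1.01), 1 model of 6 group means and Benjamini-Hochberg adjustment within each comparison. CPM uses TMM-scaled library sizes, FPKM the exonic length, and ± values of fold changes are standard errors of that model. Depth was 19308315 to 28648657 counts. The biological coefficient of variation was 3.47%, and replicates differed by more than sampling noise. The scripts were tested on simulated data.

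Values in every library are given for ATF4, DDIT3, ASNS, XBP1, HSPA5 and the 4 called members of largest change per knockdown, and by name for 2 members of each further list. Members and lists were chosen with earlier results of these data known, so counts over them are descriptions. Alternatives were RLE factors, DESeq2 1.42.0, a replicate block, only the groups compared, unstranded counts, other filters, a GC correction, no fold limit and leaving out each library. Positions are from GENCODE, promoter sequences from RefSeq. Protein sequences were not used here.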

Additional observations from a re-analysis of the deposited data

Results flagged for a closer look

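CHAC1, DDIT4, DNAJB9, VLDLR, ATF6, EIF2AK3, SLC7A5 and CEBPG were called higher in at least 1 knockdown and lower in another, and the difference between the knockdowns at both ends was fitted in the same edgeR model. These pairs were chosen by their calls, so the differences are given with their SE and without a p-value. CHAC1 was 1.88 ± 0.21 higher on the log2 scale in siGATAD2A than in siCARM1. DDIT4 was 1.34 ± 0.06 higher in siHDAC2 than in siCHD4, and DNAJB9 was 1.07 ± 0.12 higher in siCHD4 than in siHDAC2. VLDLR was 1.05 ± 0.06 higher in siGATAD2A than in siKDM1A. The sensors were opposed, with ATF6 0.91 ± 0.05 higher in siKDM1A than in siCHD4 and EIF2AK3 0.82 ± 0.08 higher in siCHD4 than in siKDM1A. SLC7A5 was 0.72 ± 0.04 and CEBPG 0.64 ± 0.06 higher in siCHD4 than in siCARM1.

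The members left out of the test also had counts above the control libraries. The mean level of ASNS was 2.18 CPM in siGATAD2A, 1.77 in siHDAC2 and 1.60 in siKDM1A, above both siCTL libraries (1.2 and 1.01 CPM), and that of NUPR1 was 0.174 CPM in siCHD4 (5 and 3 counts against 0 and 2 in siCTL). These differences were not tested.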

How the results depend on the processing

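The number of members called moved by more than 1.5 times only without the fold limit, to 31 in siCARM1 and 28 in siHDAC2 (18 each with it). The replicate block, DESeq2, RLE factors and the fit of the 2 groups compared left every call against siCTL in place (with the replicate block, siCHD4 had 28 members called, siGATAD2A 19, siCARM1 and siHDAC2 18 each, and siKDM1A 17). Replicate numbers were not taken as pairs, since deviations of same-numbered libraries correlated between −0.312 and 0.318. The GC correction ended the calls of HSP90B1, PDIA6, SESN2 and SHMT2 in siCARM1 and of DNAJC3 and SLC3A2 in siHDAC2. The arm difference (ATF4 minus ER) in siCHD4, −0.17, became −0.068 with the GC correction. In siGATAD2A it was 0.090, and 0.197 with edgeR's own expression filter or 0.304 with all coding genes that had a count, and in siKDM1A the latter gave 0.018 against −0.055. These filters change the genes of the ATF4 arm. The former adds ASNS, and the latter adds ASNS and NUPR1, so that the arm holds 25 genes instead of 23. With libraries left out in turn it ranged from −0.197 to −0.095 in siCHD4 (−0.095 without siCTL replicate 1), −0.108 to −0.055 in siHDAC2 (−0.055 without siCTL replicate 2), 0.048 to 0.156 in siGATAD2A (0.048 without siCTL replicate 1, 0.156 without siGATAD2A replicate 2) and −0.110 to −0.026 in siKDM1A. The cause of the moves with the GC correction and with libraries left out was not tested. For the fold changes against siCTL of the 14 tested members with values in every library, 1452 of the alternatives kept the call, 16 gained and 2 lost one. Among values called in either fit 0 changed sign, and the sign of values called in neither was not compared. Other members lost calls without a siCTL library (CEBPG, PDIA6 and HSP90B1 in siCARM1, DNAJB9, DNAJC3 and SLC3A2 in siHDAC2, DNAJC3 in siGATAD2A, MANF and HSP90B1 in siKDM1A). ATF4 in siHDAC2 passed the fold limit without siCTL replicate 2 (0.296), as did SLC7A1 (0.265), and TRIB3 in siCARM1 did so with the GC correction (0.371). Between knockdowns 1706 kept their call and 37 lost it, 15 of them for DDIT3 between siCHD4 and siGATAD2A.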
